A study of Rattus norvegicus with 4 samples.

Results

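Cadherins, protocadherins and integrins were described across the cell types of the rat anterior pituitary, from single-cell RNA sequencing of 7861 dispersed cells. The members are the genes whose symbol begins with *Cdh* and a number, with *Pcdh*, or with *Itga*, *Itgb* or *Itgx*, and that had at least 1 UMI (a unique molecular identifier, which marks 1 captured transcript) in 10 or more cells. Of the 30058 genes in the table, 115 had such a symbol and 98 met the cell number: 20 cadherins, 49 protocadherins, 25 integrin subunits, and 4 genes that share the prefix but encode no integrin subunit (*Itgb1bp1*, *Itgb1bp2*, *Itgb3bp* and *Itgbl1*). The 17 genes left out were *Itgad*, *Cdh7*, *Cdh16*, *Cdh19*, *Pcdhgc5*, a second row of *Pcdh15* and 11 genes of the *Pcdha* cluster. The rats were Sprague Dawley rats, and no treatment is named. The anterior pituitaries of 4 females in diestrus, at postnatal day 44, were pooled and loaded on 2 lanes of a droplet instrument (lanes 1 and 2), and those of 4 males at postnatal day 59 on the other 2 (lanes 3 and 4). Lanes of the same sex therefore share their animals, so that they are technical replicates, and sex, pool and age cannot be told apart.

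Classical cadherins are calcium-dependent proteins that bind a like cadherin on the neighbouring cell, and their tails hold catenins and, through them, actin. Protocadherins have more cadherin repeats and no catenin-binding tail. The clustered protocadherins are made from the *Pcdha*, *Pcdhb* and *Pcdhg* gene arrays and give neurons a surface identity, whereas the delta protocadherins lie outside these arrays. Integrins are pairs of an alpha and a beta subunit that bind collagen, laminin, fibronectin or counter-receptors on other cells. In the anterior pituitary, folliculostellate cells (FSC) form a network among the hormone-producing cells (HPC), which make ACTH (corticotrophs, C), gonadotropins (gonadotrophs, G), TSH (thyrotrophs, T), growth hormone (somatotrophs, S) or prolactin (lactotrophs, L). Cells of the vessels and blood are found alongside them: endothelial cells (EC), leukocytes (Le) and erythrocytes (E).

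The cells were sorted into types by the marker genes of the study, and 6846 were kept: 2314 FSC, the HPC (794 C, 239 G, 88 T, 1886 S and 484 L), and 361 E, 548 Le and 132 EC. The remaining cells were doublets, outliers in depth or mitochondrial share, cells of no clear type, or the 51 pericytes, 60 melanotrophs and 59 posterior pituitary cells described at the end. Genes that were not used to sort the cells had UMIs where they belong, with *Alas2* in 98.6% of E, *Ptprc* in 69.3% of Le, *Pecam1* in 81.8% of EC, *Sox2* in 71.7% of FSC, *Tbx19* in 80.6% of C, *Nr5a1* in 77.4% of G, and *Pou1f1* in 91.4% of S, 94.8% of L and 65.9% of T. Some were also found elsewhere, with *Sox2* in 19.5% of C and 10.5% of G, and *Nr5a1* in 6.82% of T. The kept cells of a lane held 16167310 to 19732314 UMIs. Over all cells, the Y-linked *Eif2s3y* had 0 and 1 UMIs in the female lanes against 2038 and 2100 in the male lanes. *Ddx3y*, also Y-linked, had 10 and 8 UMIs in the female lanes and 11 and 14 in the male lanes, and did not separate the sexes. Median depth per cell ran from 6488 UMIs in Le to 13653 in S, and it was 18316 in female L against 7253 in male L. A barcode sequence that also occurred in another lane was found for 60 cells. Levels are given as CPM, the UMIs of a gene over the cells of a type scaled to 1 common total, and are compared between types for 1 gene and not between genes. Of the 98 members, 86 had no UMI in E, and the largest share of E cells with a UMI was 1.39% (*Itgb1*), at a median depth of 8246 UMIs. Intervals cover counting error only.

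Of the 98 members, 55 had enough UMIs to be tested between the 8 types other than E, and 54 of these 55 differed among the types (edgeR quasi-likelihood test on UMI sums per type and sex, adjusted p below 0.05), beside 82% of all 13624 genes tested. *Pcdhb17* was the member that did not pass (adjusted p = 0.0661). The other 43 members had 1 to 153 UMIs in the kept cells and were not tested. A member was called highest in a type when it was higher there than in each of the other 7 types, which held for 26 members. All 26 had the same top type in the female and the male pool, which gives no separate support, since the calls rest on these pools. Of all 55 tested members, 43 had the same top type in both. Levels are given for the female pool and then the male pool. Members with many UMIs in 1 type are the ones that pass a filter on low counts, so the counts describe the tested members and not all 98.

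**Figure D1:**
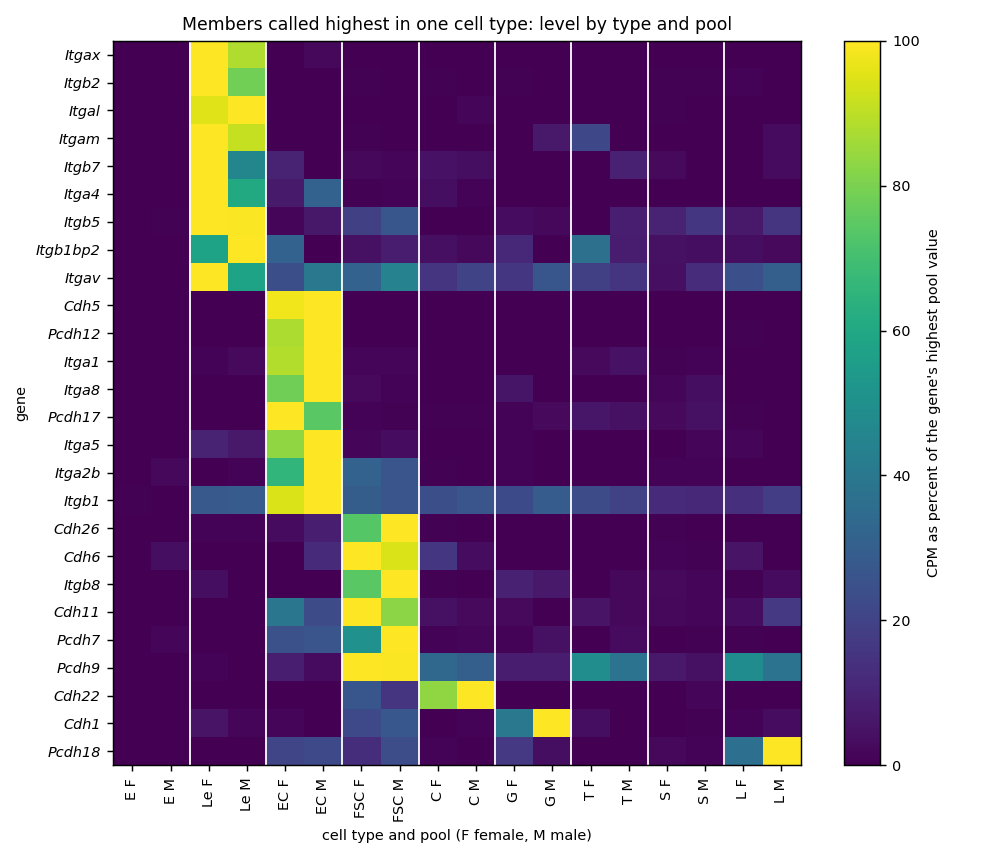
CPM of the 26 members called highest in a type (rows) in each cell type and pool (columns, F female, M male), as percent of the gene's highest pool value on a colour scale. The integrins of Le, *Cdh5*, *Pcdh12* and *Itga1* in EC, and *Cdh26*, *Cdh6* and *Itgb8* in FSC stand out in both pools, whereas *Itgb1*, *Itgav* and *Pcdh9* have colour in several types.

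In Le, 9 members were called highest, beside 9.17% of all genes tested, and all but *Itgb1bp2* encode integrin subunits. Scaled by library size alone, 5 were called, and *Itga4*, *Itgav*, *Itgb1bp2* and *Itgb7* were not. DESeq2 also called fewer than 9. The 9 include the leukocyte subunits alpha L, alpha M, alpha X and beta 2, and the alpha 4 and beta 7 subunits, which pair in lymphocyte homing. *Itgb2*, the beta subunit shared by alpha L, alpha M and alpha X, stood at 85.7 CPM in female Le and 67.6 in male Le, against 0.568 and 0.569 in S, the next type (log2 difference 7.01, SE 0.464, adjusted p = 2.47e-08, edgeR). *Itgax*, the alpha X subunit, stood at 105 and 92.5 CPM in Le, where 365 of its 370 UMIs lay. EC, the next type, held 1 UMI of *Itgax*, a ratio of 113 with a counting interval of 20.2 to 4487. *Itgal*, the alpha L subunit, was at 12.1 and 12.7 CPM in Le and had 1 UMI in C, a ratio of 116 (interval 19.8 to 4668). *Itgam*, the alpha M subunit of macrophages and granulocytes, was at 16.1 and 14.7 CPM in Le and had 1 UMI in T, a ratio of 15.2 (interval 2.61 to 609). In both pools the Le level of these 4 genes was above that of every other type.

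*Itga4* stood at 20.1 and 12.2 CPM in Le and at 1.48 and 6.30 in EC (log2 difference 2.89, SE 0.869, adjusted p = 0.0217, edgeR). *Itgb7* stood at 15.5 and 7.11 CPM in Le and had 1 UMI in T, a ratio of 10.9 (interval 1.85 to 441). The calls of these 2 genes each depended on lanes: without lane 1 the adjusted p of *Itga4*, and without lane 1 or lane 4 that of *Itgb7*, missed the threshold, at log2 differences of 2.29, 3.32 and 3.45. *Itgb5*, the beta 5 subunit that pairs with alpha v to bind vitronectin, was less restricted. It stood at 100 and 99.6 CPM in Le, at 18.8 and 26.7 in FSC, and at 9.85 and 15.8 in S (log2 difference of Le over FSC 2.76, SE 0.273, adjusted p = 6.11e-07, edgeR). *Itgav*, its alpha v partner, was at 36.8 and 21.3 CPM in Le, and its log2 difference over L, the next type in the fit, was 1.59 (SE 0.416, adjusted p = 0.00474, edgeR). *Itgb1bp2*, which is known for its role in muscle, was at 10.9 and 18.8 CPM in Le, and its call did not hold without lane 1, lane 3 or lane 4.

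The Le cells fell into 493 cells with at least 2 of the complement genes *C1qa*, *C1qb* and *C1qc*, which mark macrophages, above their thresholds and 54 cells with none of them, at median depths of 6505 and 6303 UMIs. No test was made between these cells, since cells of a pool are not replicates. *Itgb7* had a UMI in 0.406% of the cells with C1q (exact 95% interval 0.0492 to 1.46%) and in 40.7% of those without (27.6 to 55%). *Itga1*, the collagen-binding alpha 1 subunit, had a UMI in 0.203% (0.00514 to 1.12%) and 22.2% (12 to 35.6%). These 2 genes lay mostly in the smaller set of Le. *Itgb5* went the other way, with a UMI in 45.8% (41.4 to 50.4%) of the cells with C1q and 1.85% (0.0469 to 9.89%) of those without. *Itgav* had a UMI in 19.1% (15.7 to 22.8%) and in 0 of 54 cells, which allows a share of up to 5.56%. After each cell was thinned to 2000 UMIs, the shares were 0.203% and 16.7% for *Itgb7*, and 21.5% and 1.85% for *Itgb5*. *Itgb1*, the beta 1 subunit of most matrix-binding integrins, had a UMI in 49.3% and 48.1% of the 2 sets.

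In EC, 8 members were called highest, beside 5.26% of all genes tested. *Cdh5*, which encodes VE-cadherin of endothelial junctions, stood at 438 and 447 CPM in EC and had a UMI in 91.7% of EC cells. Le, the next type, had 3 UMIs of *Cdh5*, a ratio of 546 (interval 186 to 2654), and G, T and L had none. *Pcdh12*, a protocadherin of endothelial cells, stood at 46 and 52.5 CPM in EC and had 1 UMI in L, a ratio of 306 (interval 52.7 to 12295). The female and male EC values of both genes lay far above those of each other type.

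*Itga1* was at 252 and 285 CPM in EC and at 6.97 and 14.3 in T (log2 difference 4.36, SE 0.380, adjusted p = 1.43e-06, edgeR). *Itga5*, the alpha 5 subunit of the fibronectin receptor, was at 49 and 58.8 CPM in EC and 5.75 and 4.07 in Le (log2 difference 2.72, SE 0.760, adjusted p = 0.0136, edgeR). *Itga8*, an alpha subunit that binds RGD peptides, had 19 UMIs in EC and 2 in G, a ratio of 23.2 (interval 5.59 to 205), and its call did not hold without lane 3. *Itga2b*, known from platelets, was at 40.1 and 60.9 CPM in EC and at 19.2 and 16 in FSC (log2 difference 1.36, SE 0.386, adjusted p = 0.0143, edgeR). So *Itga2b* had a second place in FSC, with 330 UMIs there, and stood at 1 UMI in Le and 0 in T.

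*Pcdh17*, a delta protocadherin, was at 280 and 208 CPM in EC and at 17.4 and 12.9 in T (log2 difference 3.86, SE 0.489, adjusted p = 2.79e-05, edgeR), with 0 UMIs in Le. Its EC level was 250 CPM over both pools and its S level was 10.6, where the larger number of cells gave 279 UMIs against 288 in EC. *Itgb1* was found in every type: 356 and 378 CPM in EC, 106 and 109 in Le, 112 and 99.3 in FSC, 90.2 and 100 in C, 84.2 and 110 in G, 87.2 and 73 in T, 52.9 and 68.1 in L, and 46.2 and 41.9 in S. EC were above Le by a log2 difference of 1.03 (SE 0.179, adjusted p = 0.000315, edgeR). In CPM the pools of Le were above those of C and within the ranges of FSC and G. After TMM scaling, which corrects for differences in RNA composition, Le were above FSC, C and G by log2 differences of 0.62, 0.58 and 0.65 (adjusted p values up to 0.0105, edgeR). *Itga6*, the alpha 6 subunit of laminin receptors, was at 182 and 218 CPM in EC and at 63.3 and 58.9 in Le, a log2 difference of 0.98 that did not pass (SE 0.556, adjusted p = 0.208, edgeR).

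In FSC, 6 members were called highest, beside 4.08% of all genes tested, and DESeq2 called fewer. *Cdh26*, a cadherin outside the classical types, stood at 36.3 and 49.4 CPM in FSC, which held 823 of its 835 UMIs. EC had 3 UMIs of *Cdh26*, a ratio of 16.7 (interval 5.69 to 81.0), and G, T and L had none. *Cdh6*, a type II cadherin, was at 17.7 and 16.7 CPM in FSC and at 2.82 and 0.554 in C (log2 difference 3.32, SE 0.620, adjusted p = 0.000769, edgeR). *Itgb8*, the beta 8 subunit that pairs with alpha v and binds latent TGF-beta, was at 48 and 64.4 CPM in FSC, at 5.83 and 4.37 in G, and had 0 UMIs in EC (log2 difference of FSC over G 3.27, SE 0.491, adjusted p = 0.000110, edgeR). For these 3 genes the lower of the FSC pools was above the higher pool of any other type.

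*Cdh11*, a type II cadherin of mesenchymal cells, was at 63.9 and 52.9 CPM in FSC and at 25.2 and 14.7 in EC (log2 difference 1.65, SE 0.465, adjusted p = 0.0126, edgeR), with 0 UMIs in Le. *Pcdh7*, a delta protocadherin, was at 24.3 and 48.1 CPM in FSC and at 11.9 and 12.6 in EC (log2 difference 1.60, SE 0.456, adjusted p = 0.0132, edgeR). *Pcdh9*, another delta protocadherin, was spread over more types: 71.2 and 70.9 CPM in FSC, 34.7 and 27 in L, 34.9 and 27.2 in T, 23.8 and 21.6 in C, and 5.30 and 5.46 in G. Its log2 difference between FSC and L was 0.65 (SE 0.247, adjusted p = 0.0457, edgeR), a call that did not hold without lane 1, 2 or 4. *Cdh13*, a cadherin held to the membrane by a lipid anchor, had 354 of its 427 UMIs in FSC, but its log2 difference over EC was 1.71 (SE 0.968, adjusted p = 0.194, edgeR), since EC were at 0 in females and 14.7 CPM in males. *Pcdh19*, a delta protocadherin, was at 43 and 73.5 CPM in EC and at 21 and 42.9 in FSC, a log2 difference of 0.77 that did not pass (adjusted p = 0.258, edgeR).

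FSC with *Gpha2* above its threshold and no *Krt7* (829 cells, median 7273 UMIs) and FSC with *Krt7* and no *Gpha2* (103 cells, median 7112 UMIs) differed in several members, described here without a test. *Cdh1*, which encodes E-cadherin of epithelia, had a UMI in 4.7% of the first (exact 95% interval 3.37 to 6.38%) and in 26.2% of the second (18 to 35.8%). *Itgb8* had a UMI in 23.2% (20.3 to 26.2%) and 42.7% (33 to 52.8%), and *Cdh18*, a type II cadherin, in 0.483% (0.132 to 1.23%) and 7.77% (3.41 to 14.7%). *Cdh11* was in 40% (36.7 to 43.5%) and 23.3% (15.5 to 32.7%), the opposite order. *Cdh2*, which encodes N-cadherin, had a UMI in 47.4% and 46.6% of the 2 sets. Thinned to 2000 UMIs per cell, *Cdh1* was in 1.45% and 3.88%, and *Cdh11* in 13.5% and 4.85%, shares that are given without intervals. The study lists *Krt7* and *Cdh1* among the genes with dominant expression in G. The part of G transcripts in the *Cdh1* shares was not tested.

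Of the HPC, C, G and L each had 1 member called highest, beside 1.08%, 0.741% and 0.587% of all genes tested. T had 0, beside 0.213%, and S had 0, beside 0.367%, in edgeR and likewise in DESeq2. The calls in C, G and L did not hold in DESeq2. That in G also did not hold when outliers and doublets were kept. At an unadjusted p below 0.05 against each of the other 7 types, 1 member was highest in T and 0 in S. *Cdh22*, a type II cadherin, was at 14.6 and 17.5 CPM in C and at 4.68 and 2.60 in FSC (log2 difference 2.34, SE 0.545, adjusted p = 0.00499, edgeR), and Le, EC, G, T and L had no UMI. That call did not hold without lane 3, where the log2 difference was 2.26. *Pcdh18*, a delta protocadherin, was at 10.4 and 28.5 CPM in L and at 5.93 and 6.30 in EC (log2 difference 2.17, SE 0.713, adjusted p = 0.0250, edgeR), a call that did not hold without lane 1 or lane 4 or when scaled by library size alone. *Pcdh10*, of the same group, was at 5.70 and 19.3 CPM in L, but 1 of its comparisons missed the threshold (adjusted p = 0.0603, edgeR).

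*Cdh1* was highest in G, at 36 and 89.6 CPM, followed by FSC at 19.8 and 24.3 (log2 difference 1.5, SE 0.418, adjusted p = 0.0103, edgeR). By lane, *Cdh1* in G was at 32.9 and 39.1 CPM in females and 79.8 and 98.6 in males. It had a UMI in 41% of G, 11.7% of FSC, and 0.477 to 1.86% of C, T, S and L, and after thinning to 2000 UMIs the shares of G and FSC were 10.9% and 3.24%. *Cdh2* was broader: 70.4 and 226 CPM in G, 81.1 and 101 in FSC, 94.1 and 67.3 in T, 63.5 and 67 in C, 22.3 and 33.6 in EC, 22.3 and 39.6 in L, 16.3 and 21.3 in S, and 1.15 and 0.508 in Le. The female pool of G lay below both FSC pools and the male pool above them, and G over FSC, a log2 difference of 0.68 (SE 0.274), did not pass (adjusted p = 0.0652, edgeR). *Cdh2* was lower in C than in G, whose pools were both above those of C (log2 difference of C over G -0.95, SE 0.280, adjusted p = 0.0297, edgeR), and G over T did not pass (0.85, adjusted p = 0.187). *Itga3*, the alpha 3 subunit of laminin receptors, was at 52.3 and 27.2 CPM in T and 21.3 and 25.1 in C, a difference that did not pass (log2 difference 0.52, SE 0.410, adjusted p = 0.489, edgeR). *Cdh18* was at 16.4 and 11.4 CPM in C and 10.5 and 18.6 in T, with 0 UMIs in Le and EC. *Itgae*, the alpha E subunit that binds E-cadherin, had UMIs in each of these 8 types, with 21.6 and 31.9 CPM in L and 37.6 and 20.8 in G, whose pools overlapped. Among members too low to be tested, all 13 UMIs of *Cdh12* in the kept cells lay in G and all 38 of *Pcdh15* in C, with no test.

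The promoters of 3 members that were highest in different types are shown, to set the sequence at the start of a gene beside the cell type that held most of its UMIs. RefSeq (build GRCr8, not the build of the counts) held promoters for 73 of the 98 members, each from 250 bases before to 50 after the gene's start. They are *Itgam*, highest in Le (chr1:192089342-192089641, plus strand), *Cdh26*, highest in FSC (chr3:185898181-185898480, plus strand), and *Cdh22*, highest in C (chr3:174389843-174390142, minus strand). Capitals mark GAGGAA or its reverse complement, letters that factors of the PU.1 kind can bind in leukocytes.
Itgam: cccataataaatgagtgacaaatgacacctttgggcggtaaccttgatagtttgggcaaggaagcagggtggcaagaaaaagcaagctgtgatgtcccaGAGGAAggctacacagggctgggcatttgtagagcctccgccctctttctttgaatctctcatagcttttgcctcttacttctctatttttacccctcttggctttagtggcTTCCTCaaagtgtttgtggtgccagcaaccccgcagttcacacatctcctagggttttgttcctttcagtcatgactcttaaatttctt
Cdh26: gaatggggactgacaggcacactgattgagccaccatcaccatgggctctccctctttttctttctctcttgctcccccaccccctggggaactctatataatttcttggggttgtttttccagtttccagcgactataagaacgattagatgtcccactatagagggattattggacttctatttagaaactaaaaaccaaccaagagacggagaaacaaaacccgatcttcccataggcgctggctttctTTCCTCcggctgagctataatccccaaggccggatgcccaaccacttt
Cdh22: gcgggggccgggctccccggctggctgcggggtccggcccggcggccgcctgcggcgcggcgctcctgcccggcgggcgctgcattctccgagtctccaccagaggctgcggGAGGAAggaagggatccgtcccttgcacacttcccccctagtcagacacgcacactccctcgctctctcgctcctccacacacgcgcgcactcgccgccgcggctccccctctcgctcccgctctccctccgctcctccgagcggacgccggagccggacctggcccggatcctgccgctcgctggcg
The letters GAGGAA occurred at 2 places in the *Itgam* window and at 1 place in each of the others, counting both strands. They were in 27.6% of 33469 promoters of this length and in 31.1% of the 74 promoter windows of the 73 matched members, so the match is a description and no site. The letters CANNTG (an E-box, both strands) were also searched, and occurred at 2, 0 and 0 places in the *Itgam*, *Cdh26* and *Cdh22* windows, in 72.1% of all promoters and in 59.5% of those of members. The *Cdh22* window held 40 CG pairs, against 3 in *Itgam* and 7 in *Cdh26*, with a median of 7 over all promoters (quartiles 3 and 19).

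FSC were compared with the mean of the 5 HPC types to see where the adhesion genes of the 2 kinds of pituitary cell part. Of the 55 tested members, 30 were higher in FSC, beside 28.5% of all genes tested, and 4 were lower, beside 20.2%. The median log2 difference was 2.1 over the tested members and 0.09 over all genes tested. *Cdh26* (log2 difference 9.01, SE 0.406), *Cdh6* (6.31, SE 0.625), *Pcdh7* (6.0, SE 0.331), *Itgb8* (5.33, SE 0.325) and *Cdh11* (4.57, SE 0.309) were among those higher in FSC, with adjusted p values up to 2.50e-06 (edgeR). *Cdh1* (3.37, SE 0.393) and *Cdh2* (0.51, SE 0.202, adjusted p = 0.0475) were also called higher in FSC than in the mean of the HPC, although G were above FSC in both genes over the pools. The 4 members lower in FSC were *Cdh18* (-2.40, SE 0.469), *Pcdhga4* (-1.54, SE 0.436), *Itga3* (-1.41, SE 0.289) and *Pcdh17* (-1.34, SE 0.397), with adjusted p values up to 0.0116. The calls of *Cdh2* and *Itgav* did not hold without lane 2 or lane 4, and those of *Pcdhga4* and *Pcdh17* without lane 1. That of *Cdh5* did not hold without lane 4, nor that of *Itga5* without lane 3. Scaled by library size alone, the median over all genes moved to 0.39.

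The mean over types is taken on a log scale, so a type with 0 UMIs weighs on it heavily, and 23 of the 55 tested members had 0 UMIs in 1 or more of the HPC types. *Cdh22* shows this: it was called higher in FSC than in HPC by 4.30 (SE 0.987, adjusted p = 0.00397, edgeR), although C held most of its UMIs, since G, T and L had none. When the UMIs of the HPC types were summed before the fit, an alternative chosen after seeing the data, the log2 difference of *Cdh22* was -0.39 and was not called. Under the same alternative 37 members were higher in FSC and 6 lower, and *Itga1*, *Itga6* and *Pcdh18* lost their calls, at 0.68, 1.17 and 0.43. That fit filtered low counts on its own sums, and no share of all genes was taken. Its counts can therefore not be set beside those of the main fit.

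**Figure D2:**
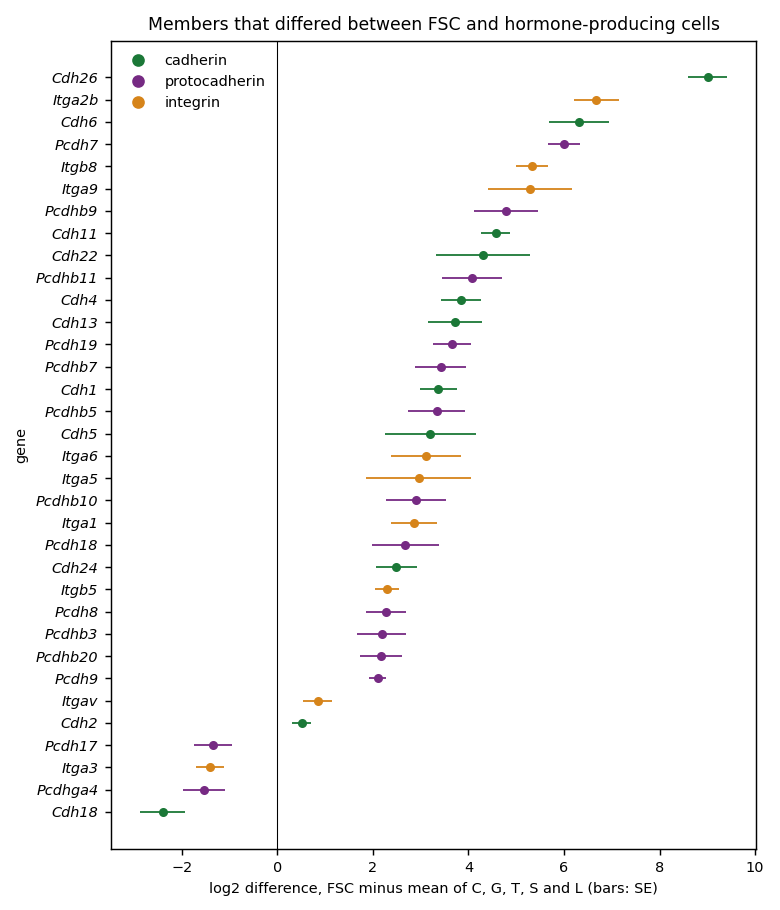
Log2 difference of FSC minus the mean of C, G, T, S and L for the 34 members called in this comparison, 1 row per gene, with bars of 1 SE and colour for the family. The 30 members above 0 reach 9.01 (*Cdh26*), and the 4 below 0 reach -2.40 (*Cdh18*); the value of *Cdh22* is the one that changed sign when UMIs were summed first.

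The 6 pituitary types together were compared with EC and Le. Of the tested members, 12 were higher in the pituitary types, beside 31.1% of all genes, and 14 were lower, beside 23.9%, with medians of 0.32 over the members and 0.19 over all genes. Of the 14 lower members, 12 encode integrin subunits or *Itgb1bp2*, among them *Itgb1* (log2 difference -1.36, SE 0.0992, adjusted p = 1.51e-08), *Itga6* (-6.42, SE 0.446) and *Itga1* (-5.88, SE 0.384), and the others were *Cdh5* (-7.77, SE 1.01) and *Cdh26*. Of the 12 higher members 9 were cadherins or protocadherins, which were also most of the members tested. They were 4 of 8 tested delta protocadherins, 2 of 4 type I cadherins, 2 of 2 *Pcdhg* genes and 1 of 8 type II cadherins. Of the 8 tested *Pcdhb* genes 0 were among them, and 0 of 2 other cadherins. The remaining higher members were the integrin subunits *Itga3* (2.36, SE 0.410) and *Itgae* (1.37, SE 0.297), and *Itgb3bp* (0.98, SE 0.202). Their adjusted p values reached up to 0.00107 (edgeR). Among the higher members the lowest adjusted p values were those of *Cdh2* (3.59, SE 0.320, adjusted p = 1.37e-07) and *Pcdh9* (4.03, SE 0.413, adjusted p = 6.67e-07, edgeR). With any 1 lane left out, the calls of *Cdh4* and *Pcdh10* did not hold. Those of *Pcdh8* and *Pcdhga4* did not hold without lane 1, 2 or 3, and that of *Pcdh1* without lane 1 or 2. Of the lower members, *Itga2b*, *Itgax* and *Itgb5* lost their calls without lane 3, and *Itgb1bp2* without lane 1. *Cdh26* was called lower in the pituitary types (-2.62, adjusted p = 0.0392), although nearly all its UMIs lay in FSC, since G, T and L had 0 UMIs, and this call did not hold without lane 1, 2 or 3. With the UMIs summed before the fit it was higher by 3.44 and called. In that fit, with its own filter and no share of all genes taken, 27 members in all were higher and 21 lower.

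The 18 genes of the *Pcdhb* array, which have 1 coding exon each, had 1607 UMIs in FSC, against 183 in S, 154 in L and 153 in G. Summed over the array, FSC were at 82.2 and 87.2 CPM, G at 55.1 and 53.5, EC at 34.1 and 56.7, L at 16.1 and 41.5, T at 10.5 and 18.6, S at 5.59 and 7.84, C at 6.92 and 5.72, and Le at 4.60 and 2.03, with 0 UMIs in E. At least 1 *Pcdhb* gene was found in 43.6% of FSC cells (exact 95% interval 41.5 to 45.6%) and in 43.1% of G cells (36.7 to 49.6%). Of the FSC cells with any *Pcdhb* UMI, 27.9% had UMIs of 2 or more of the genes, and of the G cells 28.2%. These shares were not compared at equal depth, and the median was 6898 UMIs in FSC and 9937 in G. FSC held the highest CPM over both pools for 13 of the 18 genes, and no share of all genes was taken for this. *Pcdhb4*, *Pcdhb7*, *Pcdhb8*, *Pcdhb10*, *Pcdhb14* and *Pcdhb19* among them did not have FSC on top in each pool. Only *Pcdhb6* (ratio to the next type 4.21, interval 1.85 to 11.8), *Pcdhb12* (2.79, 1.24 to 7.76) and *Pcdhb21* (3, 1.13 to 11.3) had counting intervals above 1. Of the 8 *Pcdhb* genes that were tested, 7 were higher in FSC than in the HPC, beside 28.5% of all genes tested, and 0 were called highest in 1 type. The log2 differences ran from 2.17 (*Pcdhb20*, SE 0.433) to 4.79 (*Pcdhb9*, SE 0.667). C and T had 0 UMIs of *Pcdhb9*, and with the UMIs of the HPC types summed first its difference was 3.68 and called. G were above FSC in CPM for *Pcdhb3* (9.27 against 3.91) and *Pcdhb5* (6.42 against 4.81), which are among the 7.

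The 15 genes of the *Pcdhg* array had another order. C were at 22.5 and 24.2 CPM, S at 19.9 and 18.2, EC at 13.4 and 27.3, G at 7.42 and 26.2, L at 10.4 and 18.3, FSC at 9.48 and 11.5, and T at 17.4 and 7.16. C and S were above FSC in both pools, the pools of EC and G spanned those of C and S, and those of L overlapped S. *Pcdhga4* was lower in FSC than in HPC, as given above, and the only other member of this array that could be tested was *Pcdhgb7*. The 4 *Pcdha* genes among the members, without the 11 left out, stood at 2.11 CPM in FSC, 1.82 in C and 1.43 in G. Transcripts of the *Pcdha* and *Pcdhg* arrays share their last exons within each array, where reads from the end of a transcript fall, so the split of UMIs among the genes of an array is uncertain.

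**Figure D3:**
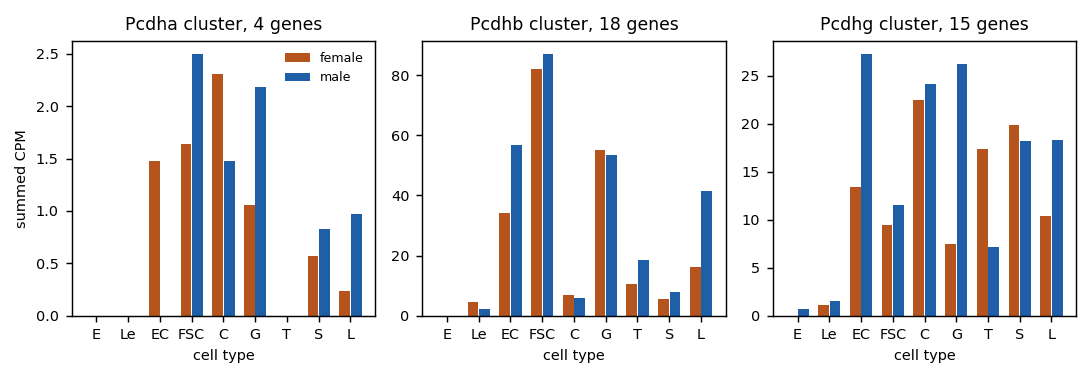
Summed CPM of the members in the *Pcdha*, *Pcdhb* and *Pcdhg* arrays (1 panel each, own y axis from 0) by cell type, with 1 bar for the female and 1 for the male pool and no error bar. *Pcdhb* is highest in FSC (82.2 and 87.2), followed by G (55.1 and 53.5) and EC (34.1 and 56.7), and *Pcdhg* is spread over EC, C, G, S and L. The 4 *Pcdha* genes shown, without the 11 found in fewer than 10 cells, stay at or below 2.5 CPM.

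Genes that work with these families were counted from lists, with all tested genes of each list differing among the types, beside 82% of all genes tested. The shares of all genes were 9.17% for highest in Le, 5.26% for EC and 4.08% for FSC, and 28.5% for higher and 20.2% for lower in FSC than in HPC. Of 20 integrin partners, 5 were highest in Le, namely *Tln1*, *Fermt3*, *Ilk*, *Parvg* and *Vasp*, and 5 in EC, namely *Fermt2*, *Parva*, *Lims2*, *Ptk2* and *Pxn*, while 11 were higher in FSC than in HPC and 1 was lower. In CPM the pools of *Ilk* overlapped, at 110 and 132 in Le and 115 and 109 in FSC. Those of *Tln1* also overlapped, at 209 and 173 in Le and 178 and 185 in EC. The calls were made after TMM scaling, and partner genes were not counted under library size alone. *Fermt3*, the kindlin of blood cells, was at 129 and 147 CPM in Le and 1.48 and 0 in EC, and *Fermt2*, a kindlin of other cells, was at 249 and 283 CPM in EC and 112 and 96.2 in FSC. Of the 9 tested cadherin partners, 4 were highest in EC: *Ctnnb1*, *Ctnnd1*, *Jup* and *Mllt4*. *Jup*, plakoglobin of junctions, was at 650 and 502 CPM in EC and 54.9 and 54.2 in FSC. In the list of cadherin partners 6 were higher in FSC than in HPC and 1 was lower, *Ctnna2* (log2 difference -4.67, SE 0.427, adjusted p = 6.36e-07, edgeR). Of 13 tested genes of the wider cadherin superfamily, *Fat3* and *Celsr1* were highest in FSC, and 8 were higher and 3 lower in FSC than in HPC. Of 8 tested integrin ligands on cells, *Icam1* was highest in Le, *Icam2*, *Jam2* and *F11r* in EC, *Icam5* in G (0.741% of all genes) and *Thy1* in T (0.213%).

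The sexes were compared within each type, from 2 female and 2 male lanes, so that p-values measure the spread between lanes of a pool and not between animals. Of the tested members, 10 of 49 differed in FSC (11.6% of all genes), 3 of 7 in G (14.8%), 5 of 21 in S (26.3%) and 6 of 14 in L (34.2%). In Le, EC, C and T, 0 of 16, 11, 13 and 2 tested members were called in edgeR, beside 1.36%, 2.09%, 1.51% and 4.48% of all genes. At an unadjusted p below 0.05 those counts were 2, 1, 1 and 0, and DESeq2 called 0 in each. In the other types DESeq2 called 6 of the 24 differences: *Pcdh7* and *Pcdh19* in FSC, *Cdh2* in G, *Itga6* in S, and *Pcdh19* and *Itgb3bp* in L. The median log2 difference of males over females was 0.21 over the FSC members and 0.01 over all genes in FSC.

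*Itga6* in S had the lowest adjusted p of these comparisons. Its S level was 10.9 and 8.68 CPM in the female lanes and 0.791 and 1.34 in the male lanes (log2 difference of male over female -3.22, SE 0.318, adjusted p = 3.82e-09, edgeR). The lanes of the sexes did not overlap. A UMI was found in 9.82% of female S cells and 1.58% of male S cells, at median depths of 11552 and 15457 UMIs. *Cdh5* of EC had 2 UMIs in S, and the EC marker list was at 6.03 and 8.86 CPM in female S and 5.67 and 7.29 in male S. The part of EC transcripts in the result was not tested. In FSC *Itga6* went the other way, at 5.39 and 6.28 CPM in females and 11.7 and 11.6 in males (0.95, SE 0.223, adjusted p = 0.0101). *Itgav* in S was at 1.75 and 1.29 CPM in females and 4.61 and 4.86 in males (1.58, SE 0.357, adjusted p = 0.00127). *Pcdh17*, *Cdh18* and *Itgb5* were also higher in male S, by log2 differences of 0.83, 0.81 and 0.62, with adjusted p values up to 0.00805. Their calls did not hold without lane 2 (*Pcdh17*), lane 1, 2 or 3 (*Cdh18*), or lane 1, 2 or 4 (*Itgb5*), and 3 members were called without lane 1 or lane 2.

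In G, *Cdh2* stood at 62.7 and 78.2 CPM in the female lanes and 237 and 216 in the male lanes (log2 difference 1.41, SE 0.179, adjusted p = 6.66e-05, edgeR). *Cdh1* moved the same way, with the lane values given above (1.04, SE 0.243, adjusted p = 0.00857). For both cadherins every male lane was above every female lane. *Itgae*, whose protein binds the product of *Cdh1*, was at 37.2 and 38 CPM in females and 25.1 and 16.8 in males (-1.12, SE 0.339, adjusted p = 0.0384). Scaled by library size alone, the median of all genes in G moved from 0.01 to 0.28, and *Itgae* lost its call at -0.85. Without lane 4, *Cdh1* (0.89) and *Itgae* (-0.83) were not called, and without lane 2 *Itgae* was not (-1.06). The FSC marker list in G was at 22.3 and 19 CPM in females and 6.84 and 27.3 in males, and its part in the result was not tested.

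In L, *Pcdh19* stood at 4.22 and 4.33 CPM in the female lanes and 40.3 and 28.6 in the male lanes (log2 difference 2.36, SE 0.347, adjusted p = 1.82e-07, edgeR). *Cdh11* was at 2.81 and 1.44 CPM in females and 11 and 10.2 in males (1.63, SE 0.490, adjusted p = 0.00830), *Pcdh10* at 6.09 and 5.29 and at 13.7 and 25.6 (1.11, SE 0.378, adjusted p = 0.0186), and *Pcdh18* at 9.84 and 11.1 and at 26.5 and 30.7 (0.80, SE 0.297, adjusted p = 0.0319). All 4 were higher in each male lane than in each female lane. With any 1 lane left out, *Cdh11* and *Pcdh18* were not called, and nor was *Pcdh10* without lane 2 or lane 4. The sum of the 3 pericyte markers in L was at 14.1 and 8.66 CPM in female lanes and 68.6 and 87.9 in male lanes. The 3 genes were not separated, so 1 of them can carry the sum. In T the same sum was at 104 and 55.5 CPM in female lanes and 78.3 and 72.8 in male lanes, with 2 of the 3 genes at 0 UMIs. The part of pericyte transcripts in the result was not tested. In pericytes *Cdh11* stood at 507 CPM, whereas *Itgbl1*, the member with the largest gap between pericytes and other types, had 0, 1, 1 and 2 UMIs in L by lane. The sum of the FSC markers in L was at 12.7, 14.4, 63.1 and 10.2 CPM by lane.

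*Itgb3bp*, which encodes a centromere protein and no integrin, was lower in male L, at 60.9 and 67.8 CPM in females and 50.3 and 50.1 in males (-1.01, SE 0.172, adjusted p = 3.90e-06, edgeR). *Pcdh9* in L was at 38.4 and 30.8 CPM in females and 32.9 and 20.4 in males, lanes that overlap in CPM, and was called lower after TMM scaling (-1.01, SE 0.239, adjusted p = 0.000645). Scaled by library size alone, the median of all genes in L moved from 0.02 to 0.66, and both genes stood at -0.36 and lost their calls. DESeq2 called *Itgb3bp* and did not call *Pcdh9*.

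In FSC, 9 members were higher in males and 1, *Cdh11*, was lower (-0.31, SE 0.0928, adjusted p = 0.0379, edgeR). *Pcdh19* was at 21.3 and 20.6 CPM in females and 38.3 and 47.5 in males (0.99, SE 0.138, adjusted p = 0.000121), and *Pcdh7* at 27.2 and 21.8 and at 51.9 and 44.2 (0.94, SE 0.132, adjusted p = 0.000136). *Cdh4*, which encodes R-cadherin, was at 7.34 and 7.40 CPM in females and 15.2 and 15.2 in males (1.0, SE 0.197, adjusted p = 0.00270). *Itga3* was at 4.16 and 3.81 CPM in females and 9.81 and 11.8 in males (1.39, SE 0.255, adjusted p = 0.00158). In these 4 genes the male lanes were all above the female lanes. *Cdh18* (1.90), *Cdh26* (0.41), *Itgb8* (0.38) and *Cdh2* (0.27) had adjusted p values up to 0.0308. Without 1 of the lanes, *Cdh11* (lane 1, 3 or 4), *Cdh18* and *Cdh26* (1, 2 or 4), *Cdh2* (any), *Itgb8* (2 or 3) and *Itga6* (1) lost their calls, and 6 members were called without lane 1, 2 or 4. Posterior pituitary cells, in which *Pcdh7* and *Itgb8* were high, were 55 of 59 from males. The sum of their 5 markers in FSC was at 0 and 0.449 CPM in female lanes and 0.577 and 2.31 in male lanes. The part of such cells in the FSC differences was not tested.

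**Figure D4:**
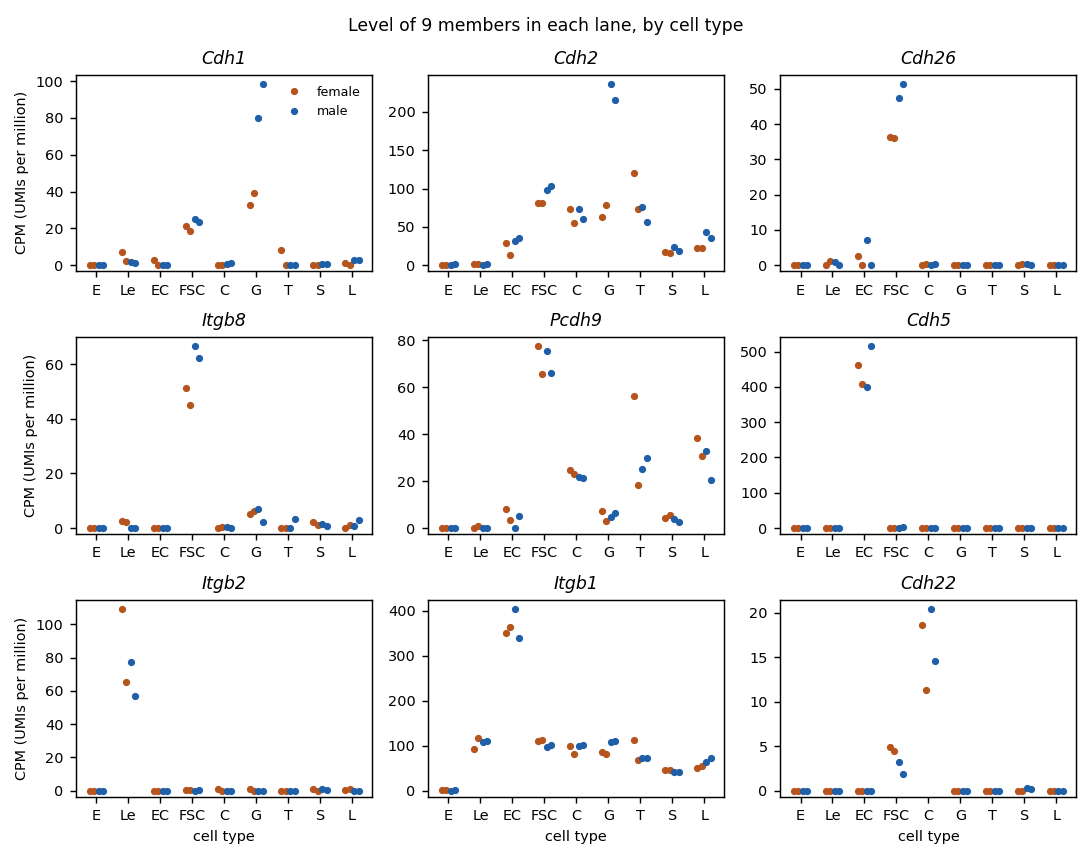
CPM of 9 members (1 panel each, own y axis from about 0) in each of the 4 lanes by cell type, with female lanes in orange and male lanes in blue. *Cdh5* has its points in EC, *Itgb2* in Le and *Cdh26* and *Itgb8* in FSC, and in G the male lanes of *Cdh1* (79.8 and 98.6) and *Cdh2* (237 and 216) lie above the female lanes.

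Whether a difference between the pools was itself different between the 6 pituitary types was tested by the interaction of sex and type, and 9 of 50 members passed, beside 25.6% of all genes tested. *Itga6* (adjusted p = 3.95e-08), *Cdh2* (5.54e-05), *Itgb3bp* (0.00025) and *Cdh18* (0.000883) had the lowest values (edgeR). *Itga6* was lower in male S and higher in male FSC. *Cdh2* was higher in males by 1.41 in G and by 0.27 in FSC.

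**Figure D5:**
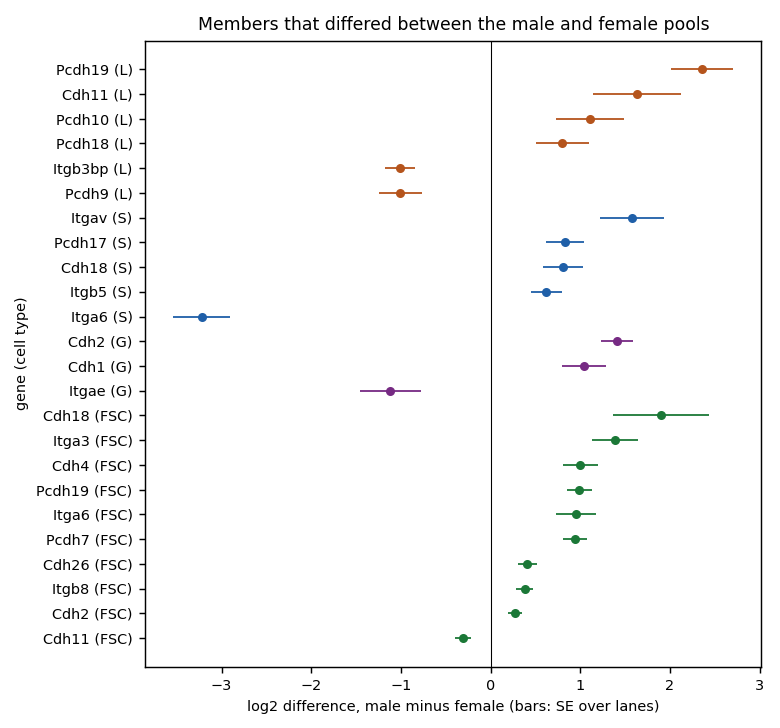
Log2 difference of male minus female for the 24 member and cell type pairs called, 1 row each, coloured by type (L, S, G, FSC), with bars of 1 SE over lanes. *Itga6* in S (-3.22) lies farthest below 0 and *Pcdh19* in L (2.36) farthest above, and 9 of the 10 FSC points are above 0.

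The other two genes with the prefix, *Itgb1bp1* and *Itgbl1*, had no type in which they were called highest. *Itgb1bp1*, which encodes a protein that binds the tail of the beta 1 subunit, was at 68.3 and 75.6 CPM in EC and 36.8 and 53.1 in L, a log2 difference of 0.03 after scaling (SE 0.212, adjusted p = 0.940, edgeR). *Itgbl1*, a secreted protein with integrin-like repeats, was too low to be tested in the 8 types, with 73 UMIs in S.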

How the data were processed

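The authors aligned reads of a 3-prime single-cell kit to an NCBI rat reference with extended gene ends, using Cell Ranger 2.1, evened the mapped reads between lanes, and deposited 1 table of raw UMI counts for all 4 lanes. Lanes carry no sample label and were assigned to a sex by the number of cells that the study gives per lane. The cells were sorted again by the study's steps, since no cell labels were used here: Otsu thresholds on marker genes, removal of outliers and simulated doublets, and the types of 30 nearest cells for 191 kept cells that lacked markers. Names rest on these rebuilt types and may differ from the study's for single cells.

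UMIs were summed per type and pool, and per type and lane for the sexes. Sums were tested with edgeR 4.0.16 (quasi-likelihood test, TMM factors, filterByExpr with a minimum count of 10) in R 4.3.3, with sex as a covariate between types and E left out. P-values are 2-sided and adjusted by Benjamini-Hochberg over all genes tested in a comparison, with a limit of 0.05. SE is the size of the log2 difference divided by the root of F. DESeq2 1.42.0, other filters, scalings and cell sets and each lane left out were the alternatives. Scripts were tested on simulated data. Exact 95% intervals are Clopper-Pearson for shares and from Poisson counts for ratios, and a count of 0 allows 3 counts.

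Named were up to 6 members highest in each type, the 12 with most UMIs, those called between the sexes (up to 8 a type), a set of 15 members, and up to 4 members each by share in pericytes, melanotrophs and posterior cells. Others named were chosen after their values were seen. The members, the lists of partner genes and the tests were chosen with earlier results of these data known.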

Additional observations from a re-analysis of the deposited data

Results flagged for a closer look

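For 9 of 50 members, beside 25.6% of all genes tested, the difference between the male and female pools itself differed between the 6 pituitary types. The edgeR test of the interaction was used, with adjustment over all genes. Its p-values measure the spread between lanes of a pool and not between animals. The 9 were *Itga6* (adjusted p = 3.95e-08), *Cdh2* (5.54e-05), *Itgb3bp* (0.00025), *Cdh18* (0.000883), *Pcdh19* (0.00353), *Itga3* (0.0139), *Pcdhb14* (0.0238), *Cdh11* (0.0303) and *Cdh13* (0.0441). The values of *Itga6*, *Cdh2*, *Itgb3bp* and *Cdh18* passed with each lane left out in turn. With any 1 lane left out *Cdh11* and *Cdh13* did not pass, and *Itga3*, *Pcdh19* and *Pcdhb14* did not pass without at least 1 of them (adjusted p up to 0.105, 0.0896 and 0.29). Scaled by library size alone, 8 of the 9 interaction calls were kept and 1 was lost. Under that scaling the male minus female difference of *Itgb3bp* in L was -0.36 and was not called. For *Cdh11* the male lanes were lower in FSC and higher in L.

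Cells left out of the comparisons held members at shares above those of the 9 types. They are described without a test, and their shares were not compared at equal depth. Of the 51 pericytes, whose markers were *Col1a1*, *Dcn* and *Lum*, 86.3% had a UMI of *Cdh11* (exact 95% interval 73.7 to 94.3%), against 34.5% of FSC, the next type. *Itgbl1* was in 82.4% of pericytes (69.1 to 91.6%) and 3.5% of S. *Itgav* was in 43.1% (29.3 to 57.8%) and *Itga9*, an alpha subunit that binds tenascin, in 29.4% (17.5 to 43.8%), against 17.2% and 6.2% of Le. The CPM of *Cdh11* was 427 in female and 556 in male pericytes, and that of *Itgbl1* 326 and 459.

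Of the 60 melanotrophs, 56 came from males. *Pcdh9* was in 48.3% of them (35.2 to 61.6%), against 35.8% of FSC, and *Cdh22* in 23.3% (13.4 to 36%), against 15.7% of C, which make the same precursor hormone. These intervals hold the share of the next type or come close to it. The type II cadherins *Cdh9* and *Cdh10* were in 20% (10.8 to 32.3%) and 15% (7.1 to 26.6%), against 4.55% of L and 0.126% of C. All 10 UMIs of *Cdh10* in melanotrophs came from male cells, and *Cdh10* had 1 UMI in the 6846 kept cells.

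Of the 59 posterior pituitary cells, 55 came from males. *Pcdh9* was in 74.6% of them (61.6 to 85%), *Itgb8* in 59.3% (45.7 to 71.9%) and *Pcdh7* in 54.2% (40.8 to 67.3%), against 35.8%, 27.4% and 22.8% of FSC. *Itgav*, the alpha partner of the beta 8 subunit, was in 52.5% (39.1 to 65.7%), against 17.2% of Le. The median depth of these cells was 8908 UMIs, and that of FSC was 6898.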

How the results depend on the processing

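No paired analysis was possible because the lanes in the table carry no replicate number that would match a female lane to a male lane. Cell types share their lanes and could be paired within them. The fit between types matched them by pool through the sex covariate, and no fit with the lane as a block was among the alternatives. Of the 26 members highest in 1 type, 9 were kept at an adjusted p below 0.001, 14 in DESeq2, 13 in cells thinned to 2000 UMIs and 21 to 25 when 1 lane was left out, where 22 to 26 members were called in all. The members that differed among the types fell from 54 to 34 with sums per lane and 22 with thinned cells, where only 34 and 23 members had enough UMIs to be tested (50 to 52 with a lane left out). Higher in FSC were 30 members, 19 with sums per lane, 12 thinned and 28 to 31 with a lane left out. Lower in FSC were 4, 2 at the stricter limit, 1 thinned and 2 to 4 with a lane left out. Higher in the pituitary types were 12 members, 5 at the stricter limit, 6 with sums per lane, 5 thinned and 7 to 10 with a lane left out. With UMIs summed before the fit there were 27, from a set of tested genes of its own. Lower there were 14, 8 at the stricter limit, 5 thinned and 11 to 14 with a lane left out. Sex calls numbered 24, 7 at the stricter limit, 6 in DESeq2, 4 thinned and 14 to 19 with a lane left out, where the lone lane of a sex is assumed to vary like the others. Interaction calls numbered 9, 4 at the stricter limit and 4 to 6 with a lane left out. Beside the changes of sign of *Cdh22* (-0.39) and *Cdh26* (3.44) with summed UMIs, the male minus female difference of *Cdh11* in FSC was 0.03 and that of *Itgb5* in S -0.24 in thinned cells, with neither called. Low counts limit the tests: 43 of 98 members were not tested, and of T only 88 cells were kept.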
